A study of Mus musculus with 8 samples.

Results

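The cadherin superfamily members considered here are the classical cadherins, the desmosomal cadherins and the protocadherins that lie outside the protocadherin gene clusters. They were chosen by symbol, as every gene row named Cdh, Dsg, Dsc or Pcdh followed by its number, which gave 43 of the 24538 gene rows in the deposited counts. The clustered Pcdha, Pcdhb and Pcdhg genes were not included. RNA was sequenced from 2 cell types of newborn mouse skin, Merkel cells and epidermal cells labelled IFE, each sorted from paw and from back skin, with 2 libraries for each of the 4 groups. Every mouse carried Atoh1-GFP and was taken at postnatal day 0, no treatment is named, and the strain is not given in the sources used here. Merkel cells were sorted for GFP and EpCAM and against Sca1, and IFE cells for EpCAM and Sca1 and against GFP. Paw and back are therefore compared within one genotype and one age, and the control epidermal cells carry the reporter too.

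Classical cadherins are calcium-dependent adhesion proteins that bind their like on the neighbouring cell and, through beta-catenin, delta-catenin and alpha-catenin, hold the actin cytoskeleton at adherens junctions. Desmogleins and desmocollins pair across the desmosome and tie keratin filaments to it through plakoglobin, plakophilins and desmoplakin, and in epidermis the different isoforms mark different layers. Protocadherins have cadherin repeats but do not bind catenins, and most are best known from neurons. Merkel cells are mechanosensory cells of the basal epidermis that lie among keratinocytes and contact sensory nerve endings.

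Each library held between 11139306 and 26195076 counts, and 1 count was worth between 0.0382 and 0.0977 CPM (the usual count scaled by library size, the sizes adjusted by TMM). The summed level of 7 Merkel markers was 2292 to 3379 CPM in the Merkel libraries and 8.58 to 17.3 CPM in the IFE libraries, none of the 7 being at 0 in any group, although Atoh1 among them belongs to the gate. One library went against its site label: over 28 Hox genes, back IFE library 2 had a correlation of 0.86 and 0.93 with the paw IFE libraries and of -0.04 with back IFE library 1. Back IFE library 1 stood out in immune and Langerhans markers, which summed to 1090 CPM there against 175 CPM in back IFE library 2. Their sum was 53.5 and 32.5 CPM in paw IFE and at most 4.12 CPM in the Merkel libraries. The part of immune cells in the back IFE values was not tested. The paw Merkel libraries also differed from each other, with 5247 and 411 CPM of summed suprabasal keratin and envelope genes. Nothing in the labels ties a library to its own animal or litter, so each p-value reflects the scatter of these libraries, which may be technical. In bulk RNA, fewer cells of a type and less RNA per cell cannot be told apart.

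Of the 43 members, 21 had counts in every library and 4 (Cdh9, Cdh17, Cdh19 and Cdh26) had none in any library, which allows at most 3 counts over each group. The largest set of silent members was in back IFE, where 16 had no count, while 8 were silent in paw Merkel, 10 in back Merkel and 11 in paw IFE libraries. Compared per transcript length (FPKM, fragments per kilobase of transcript scaled to library size, as the authors deposited them), the leading members differed by cell type. Dsc3 was at 280, 280, 209 and 221 FPKM in the 4 IFE libraries, paw first, and Cdh1 was at 182, 235, 305 and 157 FPKM. Dsc3 led in 3 of the IFE libraries and Cdh1 in back IFE library 1. In the first paw Merkel, second paw Merkel and first back Merkel libraries Pcdh9 led with 244, 649 and 603 FPKM. Back Merkel library 2 lists Pcdh9 at FPKM 0 although the gene had 51814 counts there, so that FPKM was left out. It was the single gene so listed among 2354 with at least 1000 counts in that library.

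**Figure D1:**
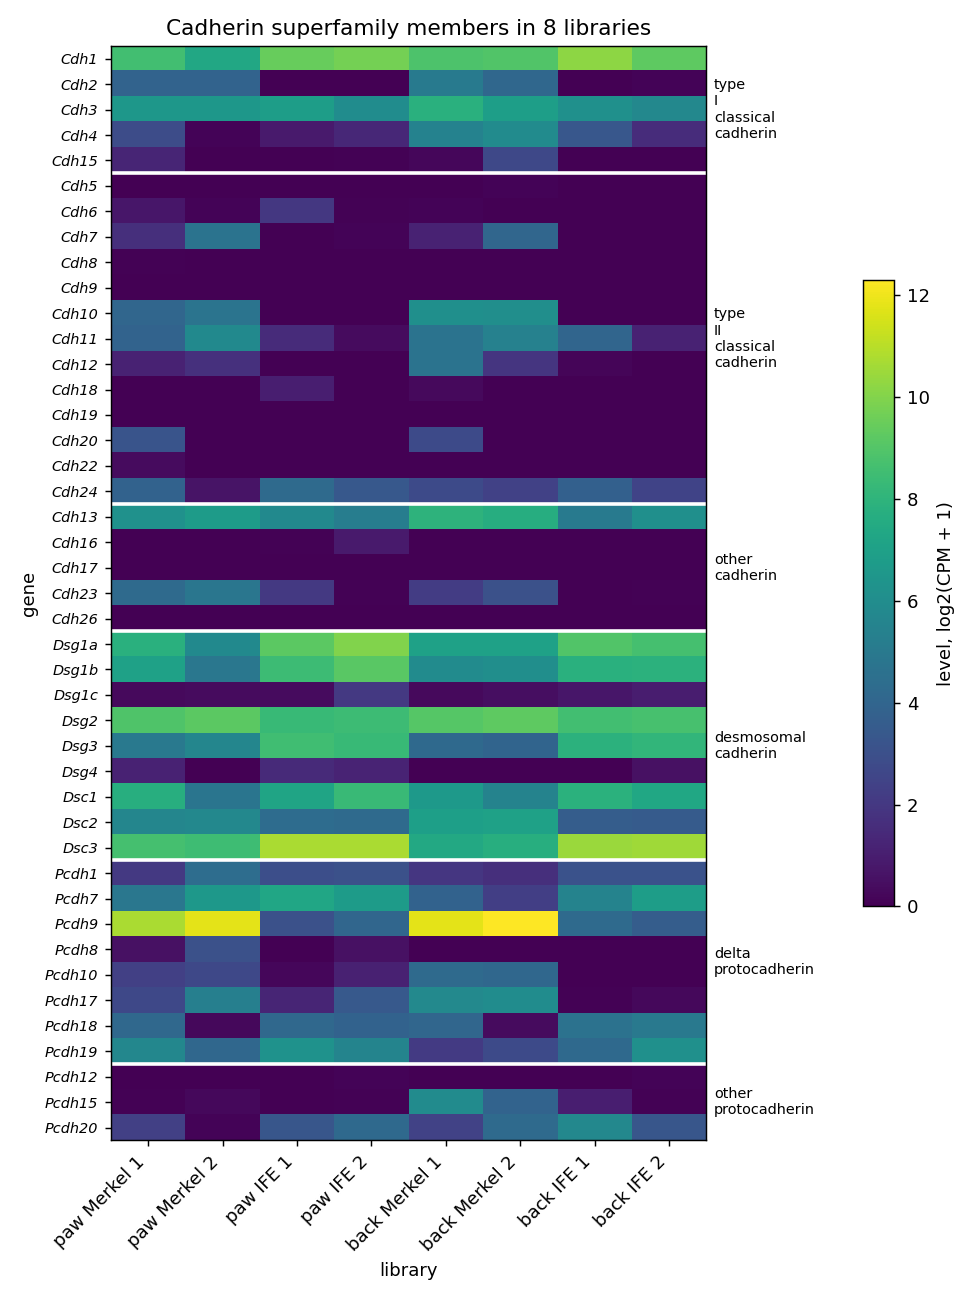
Levels of the 43 members, grouped by class (rows), in the 8 libraries (columns), as log2(CPM + 1). Pcdh9 is bright in the 4 Merkel libraries alone, Dsc3, Dsg3, Dsg1a and Dsg1b are brightest in the IFE libraries, and most type II cadherins are dark throughout.

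Differential expression was tested by edgeR's quasi-likelihood test over all 15151 genes with sufficient counts, with Benjamini-Hochberg adjustment and a threshold of 0.05. This set held 32 members, and 11 (Cdh5, Cdh8, Cdh9, Cdh16, Cdh17, Cdh18, Cdh19, Cdh22, Cdh26, Pcdh8 and Pcdh12) had too few counts. In paw, 7 of 32 members differed between Merkel and IFE cells, 3 higher and 4 lower in Merkel cells, where 6.21% of all genes tested passed (4.28% higher and 1.93% lower). In back skin 17 of 32 differed, 12 higher and 5 lower, where 15.4% of all genes passed (7.99% higher and 7.45% lower). Cdh2, Cdh10, Pcdh9, Dsc3, Dsg1a and Dsg3 passed at both sites, Dsg1b in paw alone, and 11 members in back skin alone, but in no member did the test of the difference between the sites pass. All libraries of 1 cell type lay above those of the other, without overlap, in 11 members higher and 9 lower in paw Merkel libraries, against 24.8% and 28.7% of all genes (53.6% in all). In back skin 16 members lay above and 11 below, against 29.1% and 32.8% of all genes (61.9% in all). An unadjusted p under 0.05 was reached by 15 members in paw (21.1% of all genes) and 20 in back skin (30.5%). The comparisons of cell types and of sites use the same 4 groups. The median log2 fold change, Merkel over IFE, was 0.71 over the members in paw and 1.74 in back skin (0.70 and 1.47 with genes at 0 in a group set to their bound), against -0.04 and -0.06 over all genes tested. Several members passed the count filter through the Merkel libraries only, so these counts and medians describe the tested members and are no evidence about the whole family. Group means of the authors' FPKM had the same direction for 24 of 24 calls, Pcdh9 in back Merkel resting on library 1 alone.

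**Figure D2:**
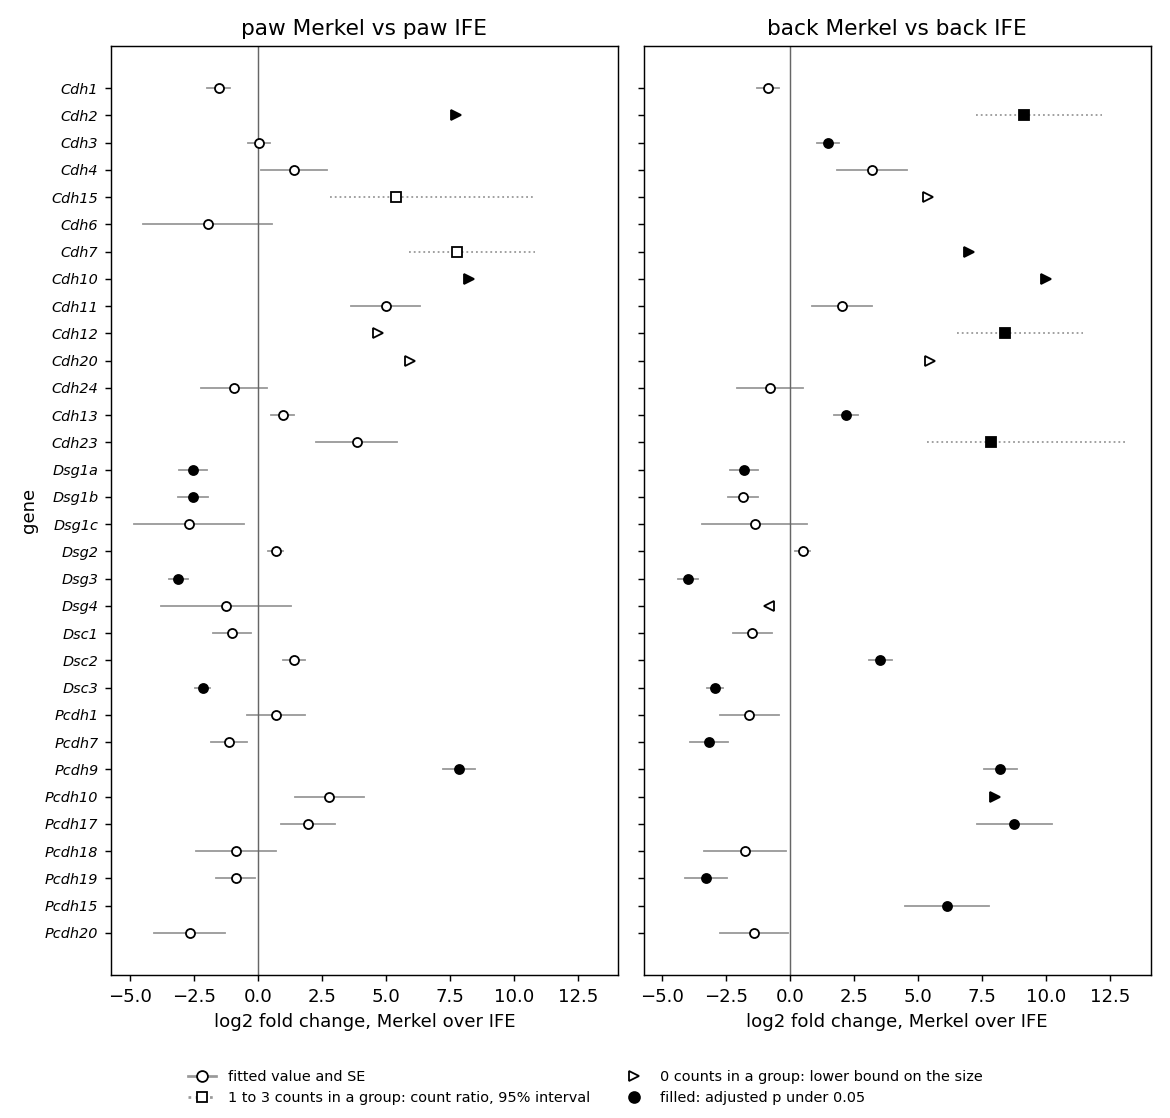
Log2 fold change, Merkel over IFE (horizontal axis), of each tested member (rows) in paw (left) and back skin (right), with filled symbols for an adjusted p under 0.05. Circles are fitted values with their SE, squares are count ratios with 95% counting intervals where a group held 1 to 3 counts, triangles are bounds where a group held 0, and a member with both groups at 3 counts or fewer has no symbol. Cdh2, Cdh10 and Pcdh9 lie far to the right in both panels, Dsg3 and Dsc3 to the left.

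Among the 5 type I classical cadherins, Cdh2 passed the test at both sites and Cdh3 in back skin, each with the higher level in Merkel cells. Cdh2 encodes N-cadherin, the classical cadherin of neurons and muscle (chromosome 18, 16588877 to 16809246, minus strand, GRCm38). It was at 14.2 and 14.1 CPM in paw Merkel, 31.9 and 16.3 CPM in back Merkel, 0 in both paw IFE libraries, and 0 and 0.0763 CPM in back IFE. Every Merkel library lay above every IFE library. The difference was at least 212-fold in paw, with the empty IFE group set to 3 counts in all (adjusted p = 0.00467). In back skin 587 counts faced 2, a ratio of 560 with a 95% counting interval of 154 to 4637 (adjusted p = 0.0033). Both calls held with any 1 library left out.

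Cdh1 encodes E-cadherin, the main classical cadherin of keratinocytes (chromosome 8, 106603351 to 106670246, plus strand). Its level was 384 and 163 CPM in paw Merkel against 706 and 865 CPM in paw IFE, and 471 and 500 CPM in back Merkel against 1175 and 605 CPM in back IFE. All Merkel libraries lay below all IFE libraries, yet the difference did not pass at either site by edgeR. In paw the log2 fold change was -1.52 (SE 0.44, adjusted p = 0.0682), and leaving out paw Merkel library 1 (adjusted p = 0.00666) or either back IFE library (0.0219 and 0.0256) brought it past the threshold. Cdh1 in paw also passed by DESeq2 (adjusted p = 0.016), by limma (0.0437) and by edgeR without a count filter (0.000823). The back skin value was -0.87 (SE 0.43, adjusted p = 0.200).

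P-cadherin, the product of Cdh3, is known from basal and hair placode keratinocytes, and its gene is the neighbour of Cdh1 (chromosome 8, 106510891 to 106557297, plus strand). Paw Merkel libraries were at 89.8 and 91.2 CPM, between the paw IFE values of 114 and 62.2 CPM. There the log2 fold change was 0.04 (SE 0.43, adjusted p = 0.977), a sign that turned to -0.049 when libraries were scaled by total counts and to -0.33 without paw IFE library 2. Back Merkel libraries, at 225 and 120 CPM, lay above both back IFE libraries, at 71.6 and 53.0 CPM, and Cdh3 was 2.77-fold higher there (adjusted p = 0.0455). The call was lost without back Merkel library 1 (log2 fold change 0.92), without either back IFE library (1.70 and 1.27) and with total counts (1.39, adjusted p = 0.0702). Cdh4, the retinal cadherin, was at 6.37 and 0.0922 CPM in paw Merkel, 0.856 and 1.58 CPM in paw IFE, 42.4 and 59.4 CPM in back Merkel, and 9.17 and 1.98 CPM in back IFE, and Cdh15, the muscle cadherin, was at 5.37 CPM or less in every library. Neither passed in a comparison by edgeR with the count filter. Cdh4 in back skin passed by DESeq2 (adjusted p = 0.0269) and by edgeR without a count filter (0.013).

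Of the 13 type II classical cadherins, which are known mainly from neurons and mesenchyme, 7 were tested. Those that passed, Cdh7, Cdh10 and Cdh12, had the higher level in Merkel cells. With 0 or 2 counts over each IFE group, they passed the count filter through the Merkel libraries. They could hardly have been called lower, so their shared direction says nothing about the class. Cdh10 (chromosome 15, 18818947 to 19014236, plus strand) had no count in any of the 4 IFE libraries. It was at 15.7 and 25.4 CPM in paw Merkel and at 69.8 and 65.8 CPM in back Merkel, 276 to 918 counts per library. Paw Merkel cells were at least 307-fold higher (adjusted p = 0.000647) and back Merkel cells at least 1008-fold higher (adjusted p = 0.000202), and both calls held with any 1 library left out. Cdh10 thus separated the cell types without overlap at both sites.

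Cdh7 and Cdh12 passed in back skin alone. Cdh7 was at 1.29 and 15.8 CPM in back Merkel and at 0 in back IFE, at least 127-fold higher (adjusted p = 0.0271), and at 2.11 and 25.0 CPM in paw Merkel against 0 and 0.0987 CPM in paw IFE. Cdh12 was at 24.7 and 2.74 CPM in back Merkel against 0.109 and 0 CPM in back IFE, a count ratio of 337 (95% counting interval 92.6 to 2793, adjusted p = 0.0371), and at 1.29 and 2.21 CPM in paw Merkel with no count in paw IFE. For both genes the Merkel libraries of a group differed widely. The Cdh7 call was lost without back Merkel library 2 or either back IFE library, and the Cdh12 call without back Merkel library 1 or either back IFE library.

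Cdh11, known from mesenchyme, passed at neither site by edgeR with the count filter. It was at 14.1 and 56.6 CPM in paw Merkel against 1.87 and 0.296 CPM in paw IFE, and 24.3 and 41.9 CPM in back Merkel against 15.1 and 1.30 CPM in back IFE. In paw the log2 fold change was 5.01 (SE 1.35, adjusted p = 0.0519). There Cdh11 passed by DESeq2 (adjusted p = 9.9e-05), by limma (0.0437), by edgeR without a count filter (1.68e-05) and with the replicate block (0.038). The 6 fibroblast markers listed summed to 77.9 to 170 CPM in the Merkel and 92.6 to 435 CPM in the IFE libraries, and Lum was at 0 in the Merkel groups. Col1a2 among them went the other way in back skin, at 164.61 and 73.96 CPM in Merkel against 21.66 and 28.93 CPM in IFE libraries, and made up most of the back Merkel sum. The part of these cells in the Cdh11 values was not tested. Cdh20 had counts in 1 library of each Merkel group (8.20 CPM in paw Merkel library 1 and 5.86 CPM in back Merkel library 1) and none elsewhere. Cdh24, at 0.553 to 17.97 CPM over the 8 libraries, and Cdh6, at 3.02 CPM or less, did not pass. Of the untested cadherins, Cdh18 had 25 counts in paw IFE library 1 and 3 in back Merkel library 1, Cdh16 had 1 and 17 counts in paw IFE, Cdh22 had 6 counts and Cdh8 had 1 count in paw Merkel library 1, and none had counts elsewhere. Cdh5, the cadherin of endothelium, had 1 count in all 8 libraries together, in back Merkel library 2, and 6 endothelial markers summed to 11.5 CPM or less.

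Cdh13 and Cdh23 stand outside the classical types. Cdh13 encodes T-cadherin, which is anchored in the membrane by a lipid and has no cytoplasmic tail (chromosome 8, 118283733 to 119324921, plus strand). Its levels were 249 and 203 CPM in back Merkel against 31.8 and 68.3 CPM in back IFE, 4.51-fold higher (adjusted p = 0.00907), and 73.9 and 107 CPM in paw Merkel against 55.7 and 36.0 CPM in paw IFE. The groups did not overlap at either site, and the call in back skin was lost without back IFE library 1 (log2 fold change 1.72, adjusted p = 0.0644), and the value was 2.82 without back IFE library 2. Cdh23 encodes a component of the tip link of hair cells, the other mechanosensory cells whose formation requires Atoh1 (chromosome 10, 60302748 to 60696490, minus strand). It was at 3.50 and 7.33 CPM in back Merkel against 0 and 0.0382 CPM in back IFE, a ratio of 231 with 1 count in the IFE group (95% counting interval 40.7 to 9196, adjusted p = 0.0263). Paw Merkel libraries were at 18.2 and 27.9 CPM against 3.10 and 0.0493 CPM in paw IFE, which did not pass. The back skin call was lost without back Merkel library 2 or either back IFE library.

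The 9 desmosomal cadherins did not move together. In Merkel cells the isoforms that lead in stratified epidermis were lower, Dsc3 and Dsg3 at both sites and Dsg1a at both sites, while Dsc2, a widely expressed desmocollin of simple epithelia as well, was higher in back skin. Over the 9 genes, all of them tested, 0 were higher and 4 lower in paw and 1 was higher and 3 lower in back skin. Of all genes tested, 4.28% were called higher and 1.93% lower in paw, and 7.99% higher and 7.45% lower in back skin. The median log2 fold change was -2.14 in paw and -1.80 in back skin (-1.48 with Dsg4, at 0 in back Merkel, set to its bound).

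Dsc3 was at 405 and 362 CPM in paw Merkel against 1691 and 1696 CPM in paw IFE, 4.42-fold lower (adjusted p = 0.0013). Back Merkel libraries held 173 and 207 CPM against 1417 and 1513 CPM in back IFE, 7.70-fold lower (adjusted p = 0.000114). Dsg3, the pemphigus vulgaris antigen of the basal layers, was at 30.2 and 49.6 CPM in paw Merkel against 368 and 312 CPM in paw IFE, 8.53-fold lower (adjusted p = 0.000562). The corresponding values in back skin were 17.5 and 14.9 CPM against 242 and 276 CPM, 15.99-fold lower (adjusted p = 8.01e-05). The Dsg3 replicates in paw Merkel were the farthest apart of these, no Merkel library reached an IFE library, and the 4 calls held with any 1 library left out. Without back IFE library 2, the log2 fold changes in back skin were -2.90 for Dsc3 and -3.90 for Dsg3.

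Dsc2 had the opposite pattern, with 123 and 130 CPM in back Merkel against 11.3 and 10.8 CPM in back IFE. It was 11.5-fold higher (adjusted p = 0.000475), and the log2 fold change stayed between 3.48 and 3.55 with any 1 library left out. Paw Merkel libraries were at 49.5 and 52.5 CPM against 19.7 and 18.3 CPM in paw IFE (log2 fold change 1.42, SE 0.42, adjusted p = 0.0726). The groups were separate at both sites. Dsg2, the desmoglein of simple epithelia and heart, was at 475 and 597 CPM in paw Merkel against 314 and 344 CPM in paw IFE, and at 527 and 617 CPM in back Merkel against 388 and 424 CPM in back IFE. It passed in neither comparison (log2 fold change 0.70, SE 0.29, adjusted p = 0.195 in paw, and 0.49, SE 0.29, adjusted p = 0.277 in back skin), although no Merkel library fell below an IFE library.

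Dsg1a and Dsg1b are 2 of the 3 mouse copies of desmoglein 1, the desmoglein of the upper layers and target of staphylococcal exfoliative toxin. Dsg1a was at 225 and 57.2 CPM in paw Merkel against 596 and 1017 CPM in paw IFE, 5.71-fold lower (adjusted p = 0.0202), and at 131 and 131 CPM in back Merkel against 501 and 412 CPM in back IFE, 3.49-fold lower (adjusted p = 0.0426). Dsg1b was at 132 and 28.8 CPM in paw Merkel against 345 and 577 CPM in paw IFE, 5.72-fold lower (adjusted p = 0.0275), and in back skin at 61.2 and 66.9 CPM against 225 and 239 CPM, which missed the threshold (log2 fold change -1.85, adjusted p = 0.0501). The paw calls of both genes were lost without paw IFE library 2, and the log2 fold changes in paw were -3.84 and -4.03 without paw Merkel library 1 and -1.84 and -1.80 without paw Merkel library 2. The Dsg1a call in back skin was lost without either back Merkel library, without back IFE library 1 and with total counts (adjusted p = 0.0505). Of the 100-base windows of Dsg1b exons, 31.6% occur unchanged in Dsg1a and 10.5% in Dsg1c, so the split of reads between the copies is uncertain. Dsc1, the desmocollin of the upper layers, was at 206 and 26.1 CPM in paw Merkel against 146 and 320 CPM in paw IFE, and at 95.8 and 44.4 CPM in back Merkel against 231 and 160 CPM in back IFE, and did not pass. Dsg1c and Dsg4, the desmoglein of hair, stayed at 3.11 CPM or less.

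**Figure D3:**
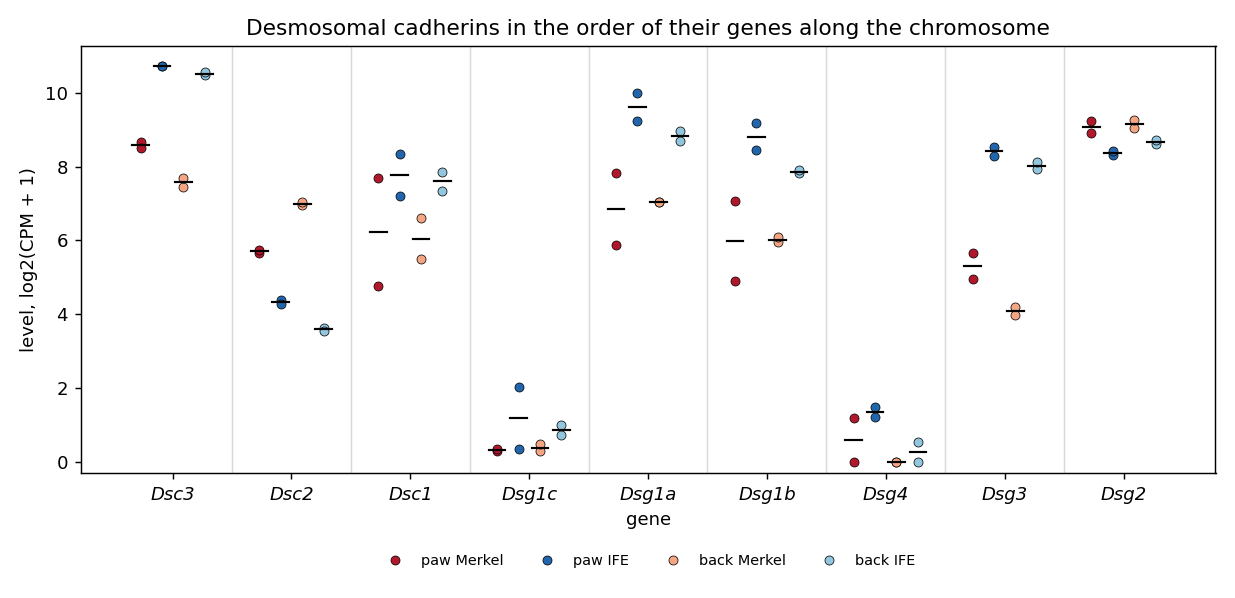
Levels of the 9 desmosomal cadherins as log2(CPM + 1), in the order of their genes along the chromosome. Points are libraries, coloured by group, and bars are group means. Dsc3 and Dsg3 lie highest in the IFE libraries, and their next neighbours Dsc2 and Dsg2 lie highest in the Merkel libraries.

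The 9 genes form 1 cluster of 643.6 kb on chromosome 18 (19960930 to 20604521, GRCm38), with the 3 desmocollins on the minus strand followed by the 6 desmogleins on the plus strand. Within it, Dsc3 and Dsc2 are neighbours that were called in opposite directions in back skin, and no desmosomal cadherin was called higher in paw. Dsc3, lower in back Merkel cells, is 28281 bases from Dsc2, which was higher in the same cells. At the other end Dsg3, lower in Merkel cells at both sites, is 10614 bases from Dsg2, whose difference did not pass.

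Keratinocyte markers moved with the desmosomal cadherins that were lower. Summed over 6 basal markers, none at 0 in any group, the level was 13.4% and 7.03% of the paw IFE mean in the paw Merkel libraries and 2.97% and 4.26% of the back IFE mean in the back Merkel libraries. Dsc3, at 23.9% and 21.4% in paw and 11.8% and 14.2% in back Merkel libraries, stood above the basal sum in each of them. Krt5 made up most of that sum in the IFE libraries (16517 of 27087 CPM in paw IFE library 1). Itga6 among the 6 fell less than Dsc3, at 335 and 295 CPM in paw Merkel against 808 and 761 CPM in paw IFE. In back skin Itga6 was at 155 and 231 CPM in Merkel against 1075 and 820 CPM in IFE libraries. The other basal markers fell further than Dsc3. Dsg3 was at 8.88% and 14.6% in paw and at 6.76% and 5.74% in back Merkel libraries. Suprabasal markers (5 of 6 listed were in the files, none at 0 in any group) summed to 62.8% and 4.92% of the IFE mean in paw Merkel and 31.5% and 17.3% in back Merkel libraries. Dsc1 was at 88.3% and 11.2%, then 49.0% and 22.7%, and Dsg1a at 27.9% and 7.09%, then 28.7% and 28.6%. Paw Merkel library 1 was thus the Merkel library highest in both Dsc1 and the suprabasal markers, and the part of keratinocyte RNA in these values was not tested. Dsg2 was at 130% to 181% and Cdh1 at 20.8% to 56.2% of the IFE means.

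Per transcript length, the make-up of the junctional cadherins differed between the cell types. Dsg2 gave 59.7% and 83.6% of all desmoglein FPKM in paw Merkel and 75.2% and 78.6% in back Merkel libraries, against 21.4% and 16.8% in paw IFE and 33.0% and 35.2% in back IFE. The Dsc2 share of desmocollin FPKM was 8.25% and 13.3% in paw Merkel and 34.1% and 34.7% in back Merkel libraries, against 0.75% to 1.24% in the IFE libraries. Cdh1 gave 61.0% to 76.3% of type I cadherin FPKM in the Merkel and 85.8% to 93.0% in the IFE libraries, the remainder being mostly Cdh3. For each of these shares the Merkel libraries did not overlap the IFE libraries. Depth behind FPKM is not stated in the table, so the shares carry no interval.

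**Figure D4:**
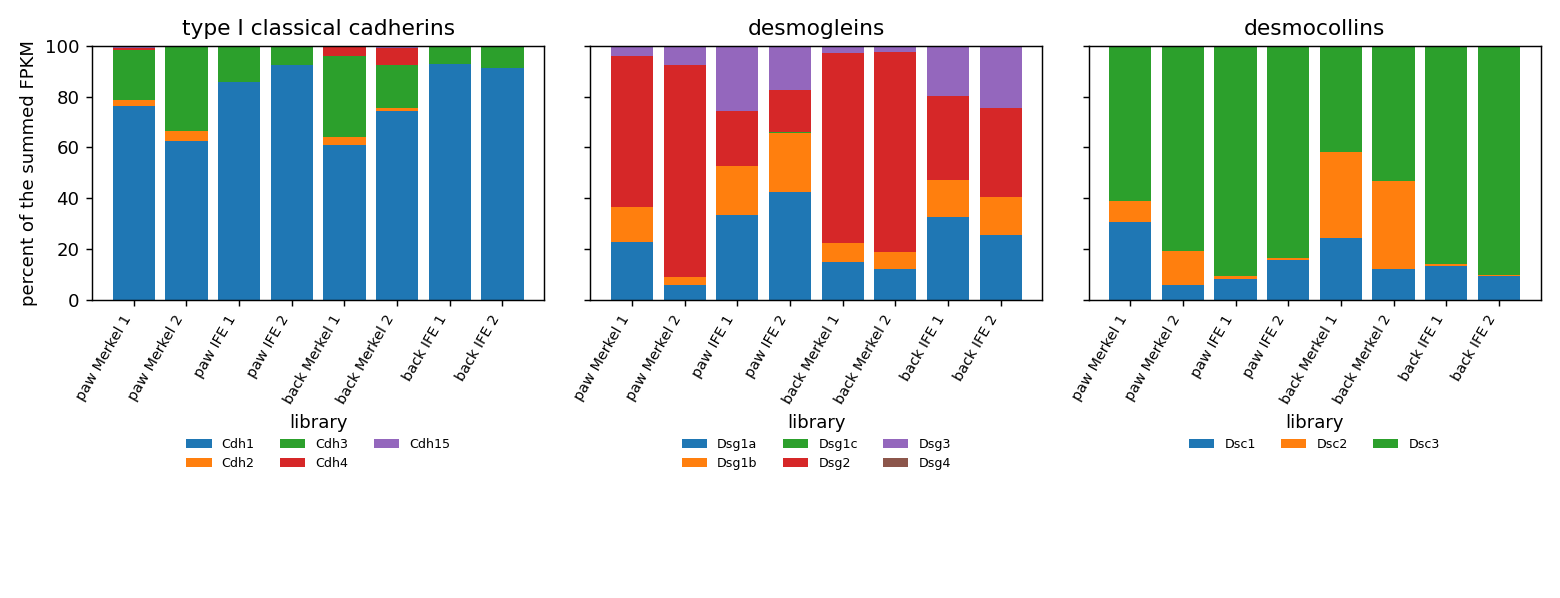
Share of each gene in the summed FPKM (vertical axis, percent) of the type I classical cadherins, the desmogleins and the desmocollins in each of the 8 libraries. Dsg2 makes up 59.7% or more of the desmogleins in the Merkel libraries and at most 35.2% in the IFE libraries, and Dsc2 is visible among the desmocollins in the Merkel libraries.

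Delta protocadherins are single-copy protocadherins with conserved cytoplasmic motifs, known chiefly for roles in neuronal connections. Of 8 members, 7 were tested, and Pcdh9 passed at both sites while Pcdh10, Pcdh17, Pcdh7 and Pcdh19 passed in back skin. The first 3 of these were higher and the last pair lower in Merkel cells. The promoters of Pcdh9, Pcdh10 and Pcdh17 are given because these genes were higher in back Merkel cells and because they share a motif. Each stretch holds the 250 bases before the start of the gene on its own strand (RefSeq, GRCm38.p6), with CCAAT, or its complement ATTGG, in capitals.
Pcdh9, chr14:93890680-93890929, minus strand: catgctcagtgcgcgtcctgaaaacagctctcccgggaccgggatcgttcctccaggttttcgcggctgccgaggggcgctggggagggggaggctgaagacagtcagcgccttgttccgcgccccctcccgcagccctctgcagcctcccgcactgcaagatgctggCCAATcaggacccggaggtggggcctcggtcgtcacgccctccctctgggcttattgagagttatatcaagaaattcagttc
Pcdh10, chr3:45378148-45378397, plus strand: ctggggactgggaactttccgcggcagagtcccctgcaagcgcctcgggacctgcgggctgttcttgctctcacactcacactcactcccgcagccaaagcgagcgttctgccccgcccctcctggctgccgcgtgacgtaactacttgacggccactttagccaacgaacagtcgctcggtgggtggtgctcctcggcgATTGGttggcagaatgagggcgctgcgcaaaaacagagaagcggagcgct
Pcdh17, chr14:84443313-84443562, plus strand: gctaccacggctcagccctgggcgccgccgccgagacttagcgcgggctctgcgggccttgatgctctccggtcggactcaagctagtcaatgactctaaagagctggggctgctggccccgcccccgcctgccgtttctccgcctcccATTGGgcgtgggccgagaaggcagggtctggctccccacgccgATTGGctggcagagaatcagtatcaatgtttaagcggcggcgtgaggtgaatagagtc

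The GC content of these stretches was 63.6%, 63.2% and 64.8%, against a median of 52.0% over 27025 promoters of the same length. Searched on both strands, CCAAT was present in 6 of the 7 delta protocadherin promoters in the RefSeq table, all but that of Pcdh7, and in 14 of 22 members with an entry, against 34.5% of all promoters. It was chosen after the sequences had been read. The E-boxes CAGCTG and CAGATG, letters that bHLH factors such as Atoh1 can bind, were in 0 of the 7 delta protocadherin promoters and 3 of the 22, against 25.3% of all promoters holding either. A match or its lack describes these 250 letters and does not show binding.

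Pcdh9 (chromosome 14, 93013410 to 93890679, minus strand) had the highest level of any protocadherin in the Merkel libraries. It was at 1702 and 3616 CPM in paw Merkel and 3556 and 5062 CPM in back Merkel, against 7.37 and 15.7 CPM in paw IFE and 17.9 and 11.3 CPM in back IFE. No library came near the other cell type. Pcdh9 was 231-fold higher in paw Merkel cells (log2 fold change 7.85, SE 0.62, adjusted p = 2.56e-05) and 295-fold higher in back Merkel cells (8.21, SE 0.63, adjusted p = 1.48e-05). The calls held with any 1 library left out, while the log2 fold change in paw was 7.21 when the second Merkel library was dropped and stood at 8.49 when the second IFE library was. Of the summed protocadherin FPKM, Pcdh9 gave 93.5%, 94.4% and 95.2% in the 3 Merkel libraries with a usable value and 2.49% to 8.96% in the IFE libraries.

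Pcdh17 (chromosome 14, 84443563 to 84539002, plus strand) was at 54.3 and 62.7 CPM in back Merkel against 0.0543 and 0.191 CPM in back IFE, which together held 6 counts. The difference in back skin was 432-fold (log2 fold change 8.76, SE 1.47, adjusted p = 0.00249). In paw the groups overlapped, with 5.32 and 38.2 CPM in Merkel and 1.39 and 9.72 CPM in IFE libraries. Pcdh10 (chromosome 3, 45378398 to 45435623, plus strand) was at 18.1 and 16.5 CPM in back Merkel and had no count in back IFE, at least 257-fold higher (adjusted p = 0.0055). Paw Merkel libraries were at 4.03 and 5.35 CPM against 0.163 and 1.18 CPM in paw IFE, without a call. Both back skin calls held with any 1 library left out, and without back IFE library 2 the log2 fold change of Pcdh17 was 9.89.

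Pcdh7 and Pcdh19 were lower in back Merkel cells. Pcdh7 (chromosome 5, 57717967 to 58133230, plus strand) was at 13.5 and 3.91 CPM in back Merkel against 44.4 and 113 CPM in back IFE, 8.99-fold lower (adjusted p = 0.0161), and at 28.7 and 93.1 CPM in paw Merkel against 155 and 108 CPM in paw IFE. Pcdh19, which in humans is an epilepsy gene on the X chromosome (here chromosome X, 133582860 to 133688987, minus strand), was at 3.27 and 5.76 CPM in back Merkel against 17.3 and 70.6 CPM in back IFE, 9.75-fold lower (adjusted p = 0.0214). Its paw levels were 51.5 and 16.1 CPM in Merkel and 77.0 and 45.9 CPM in IFE libraries, which overlapped. The IFE library with the higher value of both genes was back IFE library 2, the library with Hox genes like those of paw. Without it neither gene passed, at a log2 fold change of -2.35 for Pcdh7 (adjusted p = 0.0554) and -1.94 for Pcdh19 (adjusted p = 0.166). Both calls were also lost without back Merkel library 2 (-2.55 and -3.75), and that of Pcdh19 without back Merkel library 1, where Pcdh7 was at -4.34. Without back IFE library 1 Pcdh19 was at -3.97. Of the exonic bases of Pcdh7, 21.1% overlap the antisense gene 4932441J04Rik, and the strand setting of the counting is not given in the sources used here.

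Pcdh1 and Pcdh18 did not pass. Pcdh1 was at 3.07 and 20.006 CPM in paw Merkel, 6.76 and 7.25 CPM in paw IFE, 2.81 and 2.15 CPM in back Merkel and 7.54 and 7.56 CPM in back IFE. Pcdh18 was at 0.184 CPM in paw Merkel library 2 and 0.293 CPM in back Merkel library 2, and between 13.8 and 30.6 CPM in the other 6 libraries. Pcdh8, which was not tested, had 10 and 80 counts in paw Merkel, 9 counts in paw IFE library 2, and had no count in back skin of either cell type.

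Outside the delta group, Pcdh15 encodes the partner of cadherin 23 in the tip link of hair cells (chromosome 10, 73099342 to 74649737, plus strand). It was at 60.0 and 14.0 CPM in back Merkel against 1.03 and 0.0382 CPM in back IFE, 69.8-fold higher (adjusted p = 0.0282). In paw it had 3 counts in the Merkel and 1 count in the IFE libraries, so no fold is given. The call in back skin was lost without back Merkel library 1 (log2 fold change 4.67, adjusted p = 0.247) or back IFE library 2 (5.15, adjusted p = 0.0866), while without back IFE library 1 the log2 fold change was 9.68 (adjusted p = 0.011) and without back Merkel library 2 it was 6.82. Both tip link genes thus passed as higher in back Merkel than in back IFE cells, and each call was lost when certain single libraries were left out. Cdh23 had 379 and 303 counts in the paw Merkel libraries and 46 and 75 in the back Merkel libraries, while Pcdh15 had 1 and 2 counts in paw Merkel and 789 and 143 in back Merkel libraries. Neither gene passed between the sites (adjusted p = 0.652 and 0.128). Pcdh20 was at 3.98 and 0.0922 CPM in paw Merkel, 8.88 and 17.4 CPM in paw IFE, 4.41 and 18.4 CPM in back Merkel and 52.2 and 8.74 CPM in back IFE, and did not pass. Pcdh12, an endothelial protocadherin, had 2 counts in each of 2 IFE libraries and none elsewhere.

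**Figure D5:**
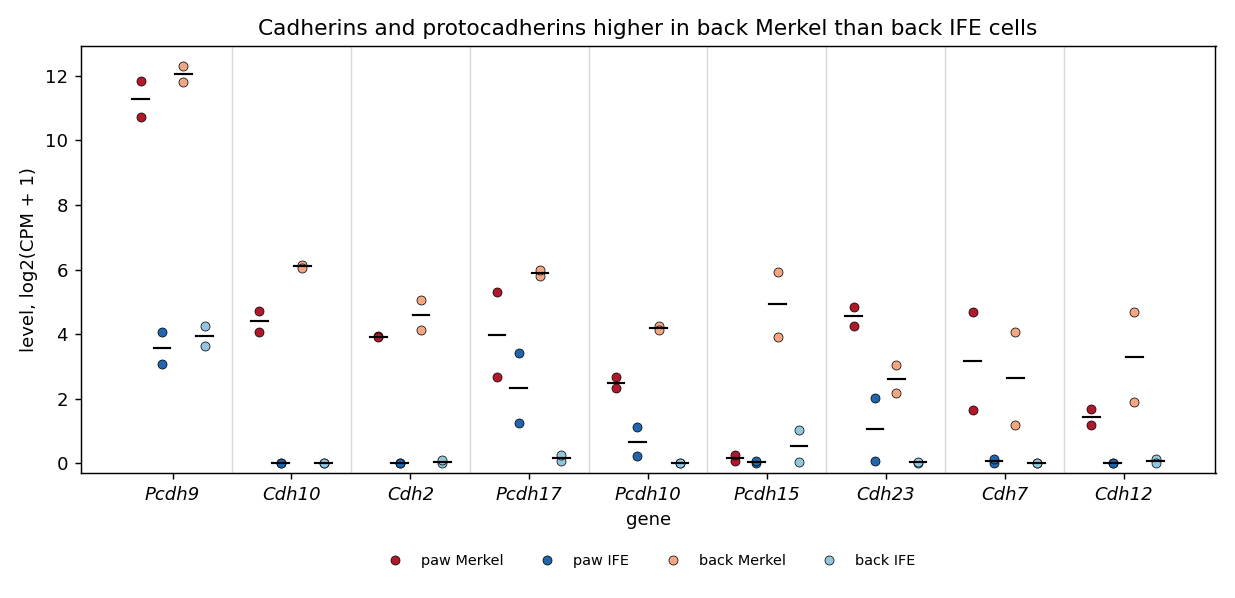
Levels as log2(CPM + 1) of 9 cadherins and protocadherins that were higher in back Merkel than in back IFE cells (Cdh3, Cdh13 and Dsc2 passed too and are not drawn). Points are libraries, coloured by group, and bars are group means. All genes drawn except Pcdh15 and Pcdh17 have Merkel libraries wholly above IFE libraries at both sites. Over all genes tested, 24.8% did so in paw and 29.1% in back skin. Pcdh15 is near 0 in paw libraries of both cell types.

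Between paw and back skin no member passed in either cell type. In Merkel cells 0 of 32 passed by edgeR, where 0.185% of all genes did (0.178% higher and 0.0066% lower in paw), while 9 members had an unadjusted p under 0.05 (10.2% of all genes), limma called 0 (0.125% of all genes) and DESeq2 called 4 (3.38% of all genes). These were Cdh4 and Pcdh15 lower in paw, Pcdh7 and Pcdh19 higher in paw. Dsc2 was at 49.5 and 52.5 CPM in paw against 123 and 130 CPM in back Merkel libraries, Dsc3 at 405 and 362 against 173 and 207 CPM, and Dsg3 at 30.2 and 49.6 against 17.5 and 14.9 CPM. Over all genes 18.2% lay wholly higher and 17.2% wholly lower in paw Merkel libraries (35.4% in all), and of the members 7 and 12. The paw and back libraries did not overlap for these desmosomal genes, nor for Cdh10, Cdh13 and Cdh4 given above, all 3 with lower values in paw. Without paw Merkel library 1, Cdh4 and Pcdh7 passed (1.09% of all genes), and without either back IFE library Pcdh15 did (0.629% and 0.478%).

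In IFE cells 0 of 32 members and 0% of all genes passed by edgeR, 6 members had an unadjusted p under 0.05 (4.24% of all genes), limma called 0 (0%) and DESeq2 called 1 (0.554%), Pcdh17, higher in paw. Their libraries did not overlap in 10 members with the higher and 4 with the lower values in paw, where 20.2% of all genes lay each way (40.4% in all). Back IFE library 2, with its paw-like Hox genes, is 1 of the 4 libraries in that comparison. The interaction of site and cell type likewise gave 0 of 32 members and 0% of all genes by edgeR, 5 members at an unadjusted p under 0.05 (9.01% of all genes), 0 by limma (0%) and 3 by DESeq2 (1.8%), namely Dsc2, Pcdh10 and Pcdh17. In 4 of 32 members (12.5%) paw and back libraries did not overlap in either cell type and differed in opposite directions, as they did in 7.94% of all genes. The members called in back skin alone are therefore not shown to differ between the sites.

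Partners of cadherins at the junctions were examined as a list of 18 genes, of which 17 were tested. The list held catenins, plakins and desmosomal plaque genes, with Vcl and Perp. In paw 1 was higher and 2 were lower in Merkel cells, and in back skin 1 was higher and 5 were lower, with median log2 fold changes of -0.26 and -0.52. Of all genes tested, 6.21% passed in paw and 15.4% in back skin. Perp, a tetraspan protein of desmosomes, was lower at both sites, at 1690 and 922 CPM in paw Merkel against 3430 and 4450 CPM in paw IFE (log2 fold change -1.59, adjusted p = 0.0236), and at 760 and 869 CPM in back Merkel against 5410 and 5380 CPM in back IFE (-2.73, adjusted p = 0.000697). Plakophilins differed among themselves in back skin. Pkp2, the plakophilin of simple epithelia and heart, was higher (53.3 and 127 CPM against 0.109 and 1.6 CPM, log2 fold change 6.67, adjusted p = 0.00187), and Pkp1 and Pkp3, those of stratified epithelia, were lower (log2 fold changes -2.15 and -2.16, adjusted p = 0.0138 and 0.00519). Without back IFE library 2 the log2 fold change of Pkp2 was 9.60, and without back IFE library 1 it was 5.80. The same directions held in paw for Pkp2, Pkp1 and Pkp3, but none of them passed there by edgeR. Their log2 fold changes in paw were 3.3452, -1.8049 and -1.4997 (adjusted p = 0.05402, 0.05385 and 0.05294). Pkp2 was thus in the same direction as Dsc2, and Pkp1 and Pkp3 in that of Dsc3 and Dsg3.

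Desmoplakin (Dsp) was lower in paw (-1.25 on the log2 scale, adjusted p = 0.0409), but not when 1 of 5 libraries was left out (paw Merkel 2, either paw IFE, either back Merkel). Evpl (envoplakin) and Ctnnb1 (beta-catenin) were lower in back skin (-1.71 and -1.08, adjusted p = 0.0497 and 0.0345), and these calls were lost without 4 and 6 of the 8 libraries in turn, among them both back IFE libraries and back Merkel library 1. Evpl was at -2.45 without back Merkel library 2. In paw Ctnnb1 lay the other way, at 1290 and 1400 CPM in Merkel against 968 and 979 CPM in IFE libraries. That difference did not pass by edgeR (0.47 on the log2 scale, adjusted p = 0.415). The Perp call in paw was lost without paw IFE library 2, and that of Pkp1 without either back Merkel library. Ctnnd2, the delta-catenin of neurons, was higher in paw Merkel cells, at 102 and 171 CPM against 9.86 and 13.2 CPM (log2 fold change 3.57, adjusted p = 0.00739). In back skin Ctnnd2 was at 118 and 174 CPM against 78.4 and 19 CPM, and did not pass by edgeR (1.59, adjusted p = 0.0975). Dsp in back skin and Evpl in paw also lay lower without passing (-0.90 and -1.41, adjusted p = 0.0758 and 0.146).

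Large cadherins outside the chosen symbols were covered by a list of 19 genes with 14 tested. Celsr3, a multipass cadherin of planar polarity in neurons, was at 81.8 and 72.7 CPM in paw Merkel against 0.122 and 3.80 CPM in paw IFE (adjusted p = 0.0111), and at 185 and 322 CPM in back Merkel against 0.163 and 0.114 CPM in back IFE (adjusted p = 0.000394). Its relative Celsr1, which orients epidermal cells, was lower at both sites (log2 fold changes -1.42 and -1.96), as were Fat1 (-1.49 and -1.28) and Fat2 (-3.75 and -3.95, or -4.45 and -4.76 without the second Merkel library of the site). In back Merkel cells Fat4 was higher (263 and 114 CPM against 26.1 and 8.40 CPM, adjusted p = 0.00449), as was Clstn3 (32.9 and 54.6 CPM against 0 and 0.0763 CPM, adjusted p = 0.00435). In paw Fat4 and Clstn3 had the same direction and did not pass by edgeR (log2 fold changes 2.07 and 5.35, adjusted p = 0.0732 and 0.0536). The counts were 1 higher and 3 lower in paw and 3 higher and 3 lower in back skin, with medians of 0.39 and 3.03. Of all genes tested, 6.21% passed in paw and 15.4% in back skin. The back skin median lay between Dchs1 and Ret, which did not pass by edgeR (2.97 and 3.08, adjusted p = 0.23 and 0.456). Ret had a mean of 2.36 CPM and an SD of 3.33 CPM in back Merkel libraries. The calls for Fat1 at both sites and for Celsr1 in paw were each lost without any 1 of 3 libraries.

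Of 9 transcription factors known to repress Cdh1, 5 were tested. Zeb1 was higher in paw Merkel cells, at 26.2 and 224 CPM against 0.733 and 0.197 CPM (adjusted p = 0.00475), with the Merkel libraries far apart, and Tcf4 was higher there too (235 and 461 CPM against 89.6 and 86.7 CPM, adjusted p = 0.0318), a call lost without paw Merkel library 2 or either paw IFE library. Paw Merkel library 2 had both the highest Zeb1 and the lowest Cdh1 of the 8 libraries, a coincidence in 1 library that was not tested. In paw Merkel library 1 and the first and second back Merkel libraries, Zeb1 was at 26.2, 76.1 and 74.1 CPM. Cdh1 was at 384, 471 and 500 CPM in the same libraries, so it did not fall as Zeb1 rose among them. Snai2 was lower in back Merkel cells, at 4.03 and 8.40 CPM against 85.9 and 148 CPM (adjusted p = 0.00069). At the other site these genes had the same directions and did not pass by edgeR. Zeb1 was at 76.1 and 74.1 CPM in back Merkel against 18.3 and 2.33 CPM in back IFE. Tcf4 was at 338 and 335 CPM against 216 and 80.3 CPM there. Snai2 was at 14.7 and 14 CPM in paw Merkel against 52.2 and 55.5 CPM in paw IFE. Among the nectins and afadin, 5 of 10 listed were in the files, and all were tested. Afdn was higher in back Merkel cells, at 1100 and 1200 CPM against 196 and 251 CPM (adjusted p = 0.00249). In paw Afdn was at 460 and 1040 CPM in Merkel against 345 and 309 CPM in IFE libraries, and did not pass by edgeR. The nectins passed at neither site. No gene of these 4 lists passed between the sites in either cell type or in the interaction.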

How the data were processed

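The authors deposited gene counts for each of the 8 libraries, and a table of FPKM values whose columns were matched to the libraries by name. Per the submitters' processing notes, the tools included Subread 1.4.6 (featureCounts), DESeq2 1.6.3, TopHat2 2.0.13 and Cufflinks 2.2.1, and the build was mm10. The gene annotation and the strand setting are not given in the sources used here. Per the labels' protocols, RNA from sorted cells was amplified before library construction, which can widen the scatter of genes with few counts.

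Counts were analysed with edgeR 4.0.16 in R 4.3.3: filterByExpr, TMM, 1 mean per group over all 8 libraries (4 residual degrees of freedom), glmQLFit and glmQLFTest, with Benjamini-Hochberg adjustment over 15151 genes. The script was tested on simulated data. Limma 3.58.1, DESeq2 1.42.0, other scalings, no count filter, a replicate block and leaving out each library were alternatives. A fold against a group at 0 was bounded with 3 counts over the group, and intervals and floors cover counting error only. FPKM served for levels between genes, for shares and for a check of the direction of each call, leaving out a 0 beside 1000 or more counts.

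Fold changes with tests are given for members past the threshold and for a panel of Cdh1, Cdh2, Cdh3, Dsg2, Dsg3, Dsc2 and Dsc3 in the cell type comparisons, and list genes are named where they passed. Members and lists were chosen with earlier results of these data known. Positions are from GENCODE on GRCm38, and promoters from RefSeq. The main fit did not pair libraries by replicate number. The correlation of same-numbered deviations was 0.01, -0.00, 0.09 and -0.04 in the comparisons. With 2 libraries per group, these values cannot show whether same-numbered libraries shared animals or a sort.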

Additional observations from a re-analysis of the deposited data

Results flagged for a closer look

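For 4 members the paw-to-back difference ran in opposite directions in Merkel and IFE cells, with no overlap between paw and back libraries in either. The same held for 7.94% of all genes tested, against 12.5% of the members. The difference of the differences was tested by edgeR's interaction term and passed for none of them. Dsc2 was lower in paw than in back Merkel libraries and higher in paw than in back IFE libraries, an interaction of -2.09 on the log2 scale (adjusted p = 0.36). Pcdh10 had an interaction of -8.50 (adjusted p = 0.353), with no count in back IFE, so its size depends on how zeros are treated. Pcdh17 had -6.79 (adjusted p = 0.275), resting on 6 counts in back IFE. Pcdh1 ran the other way, at 2.32 (adjusted p = 0.73). Each of these tests includes back IFE library 2, whose Hox genes resembled those of paw.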

How the results depend on the processing

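Member counts depended on the setting. Without a count filter 12 members were called in paw, 4 between the sites in Merkel cells, 1 between the sites in IFE cells and 1 in the interaction, where 10%, 2.36%, 0.627% and 1.59% of all genes were called. DESeq2 called 13, 4, 1 and 3 in the same comparisons, and 14.7%, 3.38%, 0.554% and 1.8% of all genes. The share of all genes called thus moved with the members' counts (6.21%, 0.185%, 0% and 0% by edgeR with the filter). With any 1 library left out, the count ranged from 5 to 13 in paw (7 with all libraries, 13 without paw Merkel library 1, 5 when the second paw IFE library was dropped and 11 when the first back IFE library was, with 6.21%, 14.5%, 3.47% and 7.91% of all genes), from 10 to 20 in back skin (17 with all, 10 and 11 without the second and the first back IFE library, with 15.4%, 10.9% and 9.5% of all genes) and from 0 to 2 between the sites in Merkel cells (2 without paw Merkel library 1, 1 without either back IFE library). Such fits assume that the lone library of a group varies like the others. In paw 5 of 7 calls, and in back skin 8 of 17 (Cdh2, Cdh10, Dsc2, Dsc3, Dsg3, Pcdh9, Pcdh10 and Pcdh17), held with any 1 library left out. The fit with the replicate number as a block called 10 members in paw and 18 in back skin, where 7.55% and 16.6% of all genes were called. It called 0 members between the sites in Merkel cells, between the sites in IFE cells and in the interaction (0.271%, 0.0066% and 0.0264% of all genes). In paw it added Cdh1, Cdh7 and Cdh11, and in back skin Dsg1b. Cdh3 in paw, 0.04 on the log2 scale, turned to -0.049 with total counts and ranged from -0.33 to 0.54 with 1 library left out, the lowest without paw IFE library 2. Total counts moved the median of all genes to -0.10 in paw and -0.15 in back skin. The cause of these changes was not tested. Levels near 1 count per library cannot be compared at this depth.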
